A study of Caenorhabditis elegans with 16 samples.

Results

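The genes described here encode secreted antimicrobial proteins and infection response proteins of the nematode Caenorhabditis elegans. They were chosen by name: every gene of either deposited table whose symbol starts with lys-, ilys-, spp-, cnc-, abf-, thn-, fip-, fipr- or irg-. This gave 33 of the 3698 genes listed in either table, out of 115 such symbols annotated in RefSeq. The table of the 20°C comparison listed 30 of them, the table of the heat shock comparison listed 9, and 6 were in both. By family, 6 of 10 annotated lys genes were listed, 2 of 6 ilys, 6 of 30 spp, 2 of 11 cnc, 2 of 6 abf, 2 of 8 thn, 2 of 7 fip, 7 of 29 fipr and 4 of 8 irg.

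RNA was sequenced from whole N2 wild-type worms grown at 20°C on plates seeded with the Escherichia coli strain OP50, in 4 groups of 4 libraries. Fed worms and worms fasted for 24 h from the mid-L4 stage, the last larval stage, were collected without heat shock (20°C), and fed and fasted worms were collected after 30 min at 35°C. The sample labels state that fasted worms recovered for 24 h before the heat shock, whereas the study's account of the sequencing experiment has the worms exposed and collected with no such recovery, so the time on food before collection is not settled by these sources. Neither source says whether the 4 libraries of one group were grown as separate cultures. The p-values therefore reflect the spread among these libraries only, which may be technical. The libraries were made from whole animals, so that fewer cells of a type cannot be told apart from less RNA per cell.

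C. elegans feeds on bacteria and has no circulating immune cells. Its gut and skin secrete enzymes and peptides that act on microbes directly. Lysozymes cut the cell wall of bacteria, and the intestine uses them both to digest bacterial food and in defence. Saposin-like proteins, called caenopores, insert into bacterial membranes and open pores. Caenacins and the fungus-induced peptides are small secreted peptides, known mostly from the response of the skin to fungal infection, and the irg genes are named for their response to infection.

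The tables were restricted by the authors to genes whose unadjusted p, fasted against fed, was under 0.05, which left 2666 of 14982 genes at 20°C and 1442 of 15456 after heat shock. Each member had thus been selected by the contrast it is tested in here, and members outside a table have no value for it. Counts of members are therefore set beside the same share of all listed genes and are descriptions. The library totals by which FPKM was scaled, called library reads here, were recovered from counts, FPKM and gene length. They were 15859001 to 26398842 at 20°C and 17071113 to 24718844 after heat shock. Whether they count reads or read pairs is not stated. A change was called at an adjusted p under 0.05 in edgeR's quasi-likelihood test.

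At 20°C the members stood apart by library before any comparison of groups. Fed replicate 3 was the highest fed library for 24 of the 30 members (80%), against 29.7% of all listed genes. Fasted replicate 3 was the highest fasted library for 20 members (66.7%, against 33.4%), and fasted replicate 2 the lowest for 20 (66.7%, against 42%). The summed FPKM (fragments scaled to gene length and library reads) of the 30 members came to 1936, 1939.6, 3634 and 2065 for the fed libraries, in order of replicate, and to 1332, 1066, 2078 and 1652 for the fasted ones. Values per library follow this order throughout. Fasted replicate 3 thus stood above all fed libraries other than fed replicate 3 in this sum. For this reason the main counts are given with and without these libraries.

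With fasting at 20°C, 20 of the 30 members (66.7%) were lower and 10 were higher, whereas 37.5% of all listed genes were lower. The median log2 fold change, fasted over fed, was -0.90 over the members and 0.57 over all listed genes. Both listed thaumatin-like genes and a pair of infection response genes fell, and the saposin-like gene spp-25 rose. In edgeR's test these 5 members (16.7%) passed, as did 13.8% of all listed genes, or 2.46% of the genes adjusted over. At an unadjusted p under 0.05 there were 26 members (86.7%, against 89.5%), and with the adjustment over the listed genes alone 24 (80%, against 81.7%). The 4 that fell are 13.3% of the members, against 3% of listed genes called lower, and the 1 that rose is 3.33%, against 10.8% called higher. Groups did not overlap for 8 members (26.7%), namely irg-3, irg-4, irg-5, lys-2, lys-7, spp-25, thn-1 and thn-2, and 52.9% of all listed genes had groups that did not overlap.

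The replicate numbers of the 20°C libraries were also used as pairs, because libraries of the same number tended to deviate from their group means together. Neither the labels nor the study state such pairs. The correlations of same-numbered libraries were low (0.120 to 0.355). Fed replicate 1 correlated more with fasted replicate 2 (0.305) than with fasted replicate 1 (0.179). Calls with the block therefore rest on a pairing taken from these data. With the replicate number as a block, 18 members passed (60%, against 25.7% of listed genes). Of these 12 were lower in fasted worms (40%, against 4.99%): abf-2, fipr-22, ilys-5, irg-3, irg-4, irg-5, lys-1, lys-2, lys-7, lys-8, thn-1 and thn-2. The other 6 were higher (20%, against 20.7%): fip-2, fipr-1, fipr-2, fipr-9, spp-23 and spp-25. DESeq2 without the block called 15 members (50%, against 32.8%). Of these 12 were lower (40%, against 8.06%) and 3 higher (10%, against 24.7%). This fit used the authors' size factors and the kind of test by which they had selected the listed genes. It is therefore no separate support for these calls.

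The scaling mattered for the counts. Over all listed genes the authors' size factors gave 288 higher and 80 lower calls, whereas TMM factors computed over the listed genes gave 161 higher and 168 lower, with the median fold change shifted by -0.21 on the log2 scale. With TMM, 11 members passed (36.7%, against 12.3% of listed genes), 10 lower and 1 higher. With DESeq2 size factors over the listed genes the shift was -0.39 and 746 listed genes passed, 143 higher and 603 lower, so that calls turned towards lower over the whole table. There 19 members passed (63.3%, against 28% of listed genes), 18 lower and 1 higher. No member changed direction under any scaling.

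**Figure D1:**
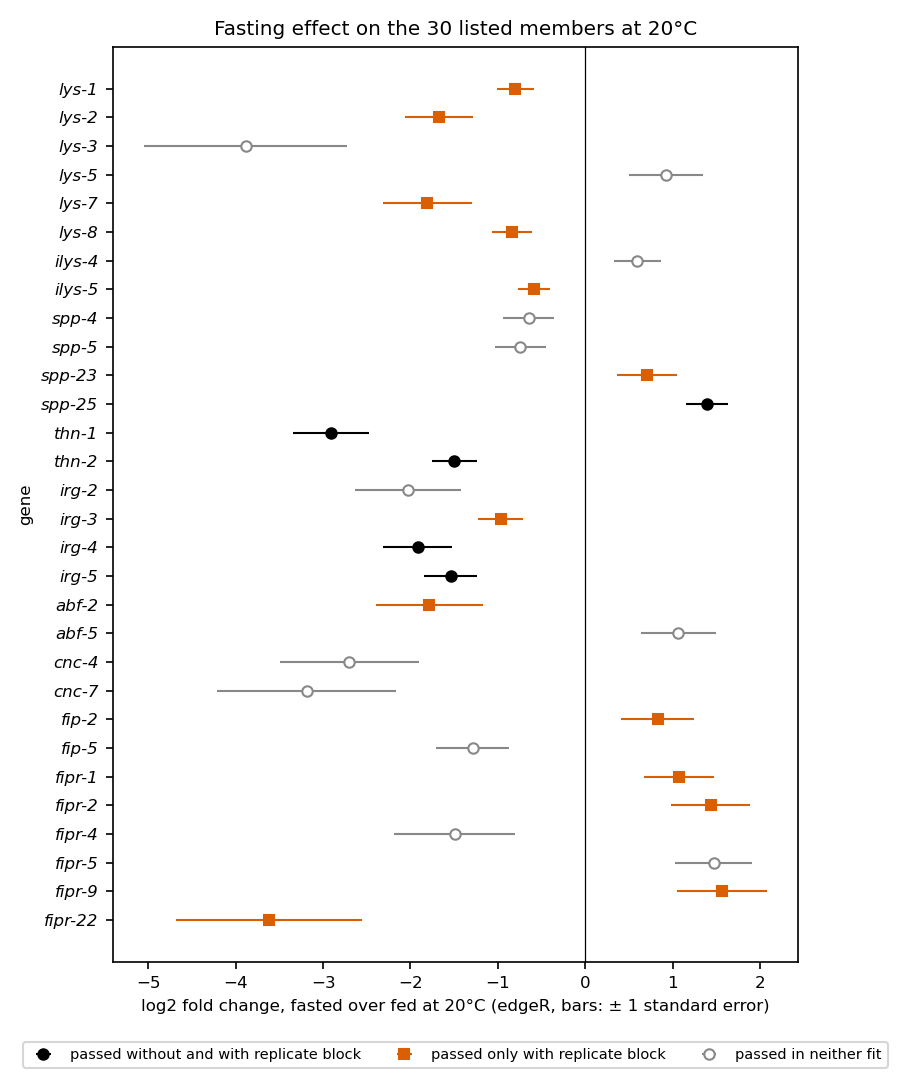
Log2 fold change of each of the 30 members listed at 20°C, fasted over fed (x axis, edgeR, bars ± 1 standard error), with genes in rows by family. Values run from -3.89 for lys-3 to 1.56 for fipr-9, and the 5 black points are the members that passed with and without the replicate block.

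The level of the members covered a wide range. In fed worms at 20°C the highest mean FPKM was that of spp-5, at 1000.0 ± 448 (SD, n = 4), followed by ilys-5 at 614 ± 120.3, lys-1 at 199 ± 60.6, lys-8 at 118 ± 32.5, lys-2 at 94.6 ± 51.9, lys-7 at 93.2 ± 63.96 and spp-4 at 69.4 ± 23.7. The neighbours lys-8, lys-2, lys-7 and spp-4 in this order differed by less than their spread. The lowest were lys-5 at 1.15 ± 0.510 and the group of lys-3, thn-1 and fipr-22 at 1.47 to 1.51. The pore-forming spp-5 and the lysozyme ilys-5 together made up 60.8% to 71.1% of the members' summed FPKM in every library, fed or fasted. Members with a low level rest on few reads, from 36 raw counts over the 4 fed libraries for cnc-7 to 47462 for ilys-5.

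The listed protist-type lysozymes were mostly lower in fasted worms, 5 of 6, and none passed with edgeR and the authors' size factors without the block. The exception was lys-5. With the block lys-1, lys-2, lys-7 and lys-8 passed. Without it, DESeq2 called lys-1, lys-2, lys-3 and lys-8, edgeR with TMM factors called lys-1, lys-2, lys-7 and lys-8, and edgeR without fed replicate 4 called lys-1 and lys-2. With DESeq2 size factors over the listed genes, which like the TMM factors lean towards lower calls, all of these passed. The genes lys-1, lys-2 and lys-3 lie next to each other within 5622 bases of chromosome V (10277827 to 10283448, WBcel235), with lys-1 on the plus strand and the others on the minus strand.

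The normalized counts of lys-7 (chromosome V, 3481419 to 3482602), a lysozyme known from defence against bacterial infection and as a target of insulin signalling through DAF-16, were 1138, 1035, 3349.5 and 1067 in fed worms and 486, 163, 870.1 and 364 in fasted worms. Fed replicate 3 stood far above the other fed libraries, and the groups did not overlap. lys-7 had a log2 fold change of -1.81 (SE 0.51), with an edgeR adjusted p of 0.109 without the block and 0.00598 with it. The exact permutation p was 0.029, the smallest that 4 against 4 libraries allow. Groups without overlap always give this value, and 52.9% of all listed genes had such groups. For lys-2 the counts were 1049.8, 1724, 2970.1 and 977 in fed worms and 587, 289.5, 783 and 449 in fasted worms. These groups did not overlap either, with replicate 3 highest in both. lys-2 had a log2 fold change of -1.67 (SE 0.39), and the edgeR adjusted p was 0.0525 without the block and 0.0181 with it.

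For lys-1, the most abundant of the family, the counts were 3692, 4195, 6022 and 3047 in fed worms and 2329, 1929.7, 3209 and 2273 in fasted worms. Only fasted replicate 3 reached the fed range. lys-1 had a log2 fold change of -0.80 (SE 0.22), with an edgeR adjusted p of 0.090 without and 0.0157 with the block. For lys-8 (chromosome II, 5586165 to 5587652) the counts were 1849.8, 2279, 3066 and 1715 in fed worms and 1297, 889, 1747 and 1044 in fasted worms. The pattern was that of lys-1, and again only fasted replicate 3 passed the lowest fed library. lys-8 had a log2 fold change of -0.84 (SE 0.23), with an edgeR adjusted p of 0.0991 without and 0.0181 with the block. The lys-8 gene overlaps C17G10.13 on the opposite strand, and no source states that read strand was kept.

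The low-level lysozymes behaved differently among libraries. For lys-3 the counts were 3.98, 76.05, 20.9 and 1.95 in fed worms and 3.01, 1.09, 2.03 and 0 in fasted worms. Fed replicates 2 and 3 were high, and fed replicates 1 and 4 lay at the level of the fasted libraries. The log2 fold change of lys-3, -3.89 (SE 1.16), was the lowest of all members. It did not pass with edgeR and the authors' size factors (adjusted p 0.126 without and 0.0615 with the block). For lys-5 the counts were 20.9, 5.94, 14.9 and 20.5 in fed worms and 40.6, 18.5, 22.4 and 37.3 in fasted worms, with overlapping groups, a log2 fold change of 0.92 (SE 0.42) and an edgeR adjusted p of 0.322.

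**Figure D2:**
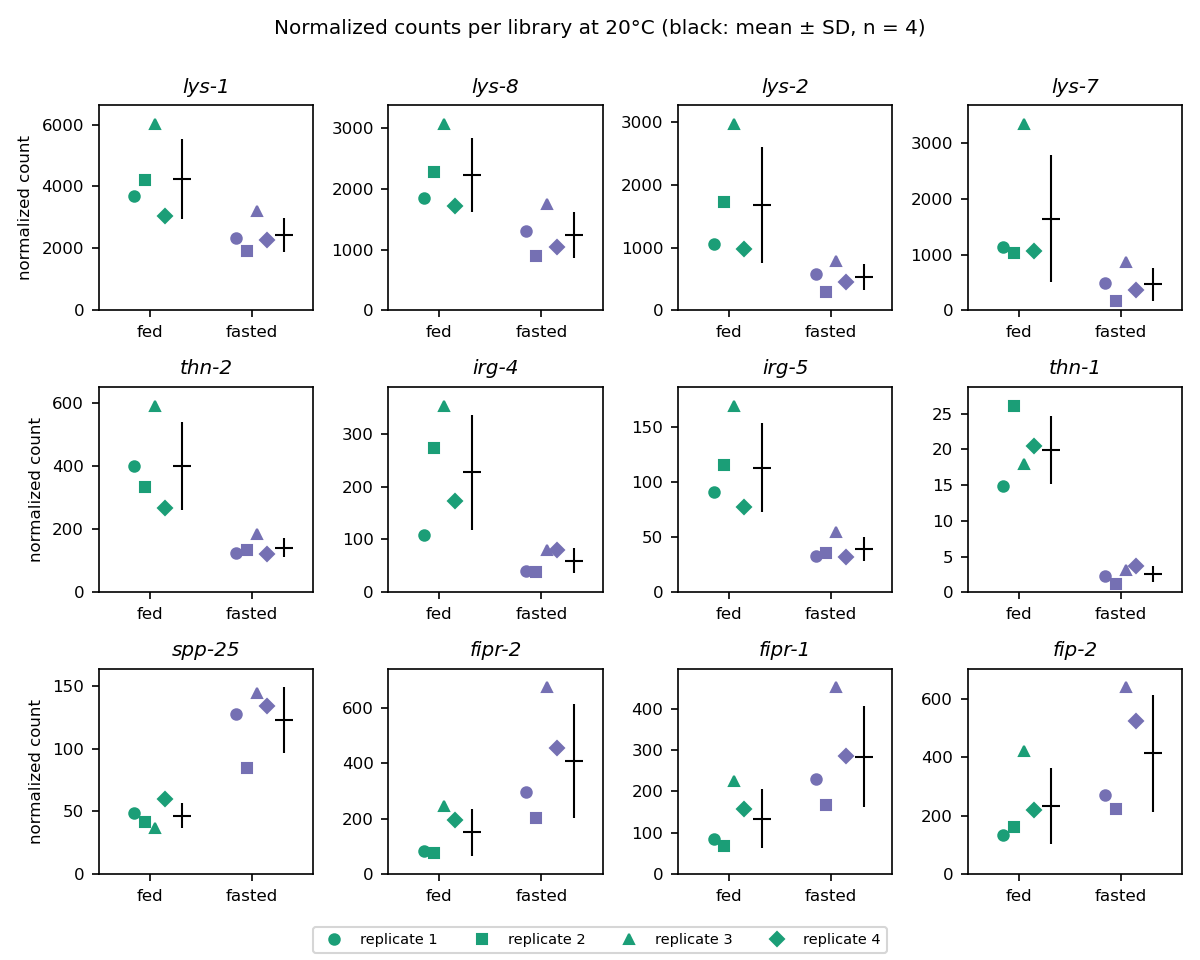
Normalized count in each 20°C library (y axis, one point per library, symbols by replicate number) for 12 members, with the mean ± SD of 4 libraries in black. Fed replicate 3 is the highest fed library for lys-1, lys-8, lys-2, lys-7, thn-2, irg-4, irg-5, fipr-2, fipr-1 and fip-2, but not for thn-1 and spp-25.

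The invertebrate-type lysozymes, a second family of bacterial cell wall enzymes, had 1 listed member lower and 1 higher. The counts of ilys-5 (chromosome X, 6535524 to 6536840) were 10406, 9511, 14831 and 13783 in fed worms and 8378, 6031, 10106 and 7781 in fasted worms. Fasted replicate 3 reached into the fed range. ilys-5 had a log2 fold change of -0.59 (SE 0.18), with an edgeR adjusted p of 0.141 without and 0.0222 with the block. For ilys-4 (chromosome IV, 7895630 to 7897543) the counts were 44.8, 46.3, 55.8 and 39.1 in fed worms and 66.2, 54.4, 103.7 and 57.3 in fasted worms. The ranges met only between 54.4 and 55.8. ilys-4 had a log2 fold change of 0.60 (SE 0.27), with an edgeR adjusted p of 0.306, and it overlaps atic-1 on the opposite strand.

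Of the 4 saposin-like genes listed at 20°C, spp-25 rose. Its counts (chromosome I, 9748294 to 9749942) were 48.8, 41.6, 36.9 and 59.6 in fed worms and 128, 84.9, 144 and 135 in fasted worms. The groups were well apart, and fed replicate 3 was here the lowest fed library. spp-25 had a log2 fold change of 1.39 (SE 0.24), a 2.63-fold higher mean, with an edgeR adjusted p of 0.0186. It passed in 3 of 8 fits that left out 1 library, with adjusted p from 0.0148 to 0.0658, and was lost without fed replicates 1, 2 or 3 or fasted replicates 1 or 4.

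The neighbours spp-4 and spp-5, within 2110 bases of chromosome X (7318275 to 7320384), were both lower and did not pass. The spp-5 protein, caenopore-5, is a pore-forming antibacterial protein of the intestine. Its counts were 6185, 5581, 13042 and 6351 in fed worms and 3501, 3437, 5611 and 6069.8 in fasted worms. Fed replicate 3 stood far above the other fed libraries, and fasted replicates 3 and 4 lay near them. spp-5 had a log2 fold change of -0.74 (SE 0.29), with an edgeR adjusted p of 0.231 without and 0.0602 with the block. For spp-4 the counts were 358, 412, 771 and 614 in fed worms and 299, 246, 527 and 305 in fasted worms, with a log2 fold change of -0.65 (SE 0.29) and an edgeR adjusted p of 0.312. For spp-23 (chromosome I) they were 241, 127, 307 and 268 in fed worms and 379.7, 177, 544 and 440.2 in fasted worms. The groups of spp-23 overlapped through fasted replicate 2, the log2 fold change was 0.71 (SE 0.34), and the edgeR adjusted p was 0.371 without and 0.0309 with the block.

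Both listed thaumatin-like genes fell. Thaumatin-like proteins are related to plant proteins made against pathogens. The genes thn-1 and thn-2 lie within 3904 bases of chromosome IV (12380104 to 12384007), both on the plus strand. The counts of thn-1 were 14.9, 26.1, 17.9 and 20.5 in fed worms and 2.26, 1.09, 3.05 and 3.64 in fasted worms. Every fed library was far above every fasted one, on 76 raw counts in the fed and 11 in the fasted libraries. thn-1 had a log2 fold change of -2.91 (SE 0.43), a 7.93-fold higher mean in fed worms, with an edgeR adjusted p of 0.00939. It passed in 8 of 8 fits that left out 1 library, with adjusted p up to 0.0436, and was lost without fed replicates 2 and 3 together (0.0568) or without both replicates 3 (0.0582).

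The counts of thn-2 were 401, 335, 592 and 269 in fed worms and 125, 133, 186.005 and 121.9 in fasted worms. The groups did not overlap, with replicate 3 highest in both. thn-2 had a log2 fold change of -1.498 (SE 0.26), with an edgeR adjusted p of 0.0169. It passed in 5 of 8 fits that left out 1 library and was lost without fed replicate 1, fasted replicate 1 or fasted replicate 4 (adjusted p 0.0541, 0.0654 and 0.0656).

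All 4 listed infection response genes were lower in fasted worms, and irg-4 and irg-5 fell. Both encode secreted-type proteins with a CUB-like domain, known as genes induced by Pseudomonas aeruginosa under the p38 MAP kinase PMK-1. The counts of irg-4 (chromosome IV, 12435827 to 12438274) were 108, 273, 354 and 173 in fed worms and 40.6, 38.1, 80.3 and 80.9 in fasted worms. The lowest fed library stood above the highest fasted one. irg-4 had a log2 fold change of -1.92 (SE 0.40), with an edgeR adjusted p of 0.0361. The call was held in 2 of 8 fits that left out 1 library, those without fed replicate 1 or 4, and was lost without any 1 of the others (adjusted p up to 0.117, without fasted replicate 1).

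For irg-5 (chromosome V, 13737007 to 13738471) the counts were 90.5, 115, 169 and 77.2 in fed worms and 33.1, 35.9, 54.9 and 31.8 in fasted worms. The groups did not overlap. irg-5 had a log2 fold change of -1.54 (SE 0.30), with an edgeR adjusted p of 0.0294. The call was held only without fed replicate 4 or fasted replicate 3, 2 of 8 fits, and the adjusted p reached 0.110 without fasted replicate 1.

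The counts of irg-3 (chromosome V, 2592548 to 2595089) were 158, 118.8, 167 and 146 in fed worms and 94.7, 56.6, 98.6 and 50.9 in fasted worms. The fed libraries were close together and the groups did not overlap. irg-3 had a log2 fold change of -0.97 (SE 0.25), with an edgeR adjusted p of 0.0838 without and 0.0298 with the block. For irg-2, known as a gene induced by infection through the transcription factor ZIP-2, the counts were 17.9, 109, 79.7 and 16.6 in fed worms and 12.03, 15.2, 17.3 and 10.004 in fasted worms. As for lys-3, fed replicates 2 and 3 were high and fed replicates 1 and 4 lay at the fasted level. irg-2 had a log2 fold change of -2.03 (SE 0.61), with an edgeR adjusted p of 0.127 without and 0.0684 with the block, and a DESeq2 adjusted p of 0.0274.

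The listed antibacterial factor genes, related to defensins, went in opposite directions. For abf-2 (chromosome I, 3885548 to 3885961), whose peptide kills bacteria in vitro, the counts were 9.95, 14.3, 42.8 and 11.7 in fed worms and 3.01, 3.27, 11.2 and 5.46 in fasted worms. Fed replicate 3 stood alone, and fasted replicate 3 reached the lower fed libraries. abf-2 had a log2 fold change of -1.78 (SE 0.61), with an edgeR adjusted p of 0.177 without and 0.0436 with the block. For abf-5 the counts were 22.9, 17.8, 37.8 and 22.5 in fed worms and 50.4, 21.8, 95.5 and 44.6 in fasted worms, with overlapping groups, a log2 fold change of 1.06 (SE 0.43) and an edgeR adjusted p of 0.249. Both genes overlap a gene on the opposite strand, C50F2.2 for abf-2 and nhr-27 for abf-5.

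Both listed caenacin genes were lower in fasted worms, and neither passed with edgeR and the authors' size factors, with or without the block. cnc-4 passed with edgeR without fed replicate 4 and with DESeq2 size factors over the listed genes, which lean towards lower calls. For cnc-4 (chromosome V, 1447222 to 1447707) the counts were 29.9, 225, 198 and 17.6 in fed worms and 22.6, 13.1, 29.5 and 6.37 in fasted worms. Fed replicates 2 and 3 again stood apart from fed replicates 1 and 4. cnc-4 had a log2 fold change of -2.70 (SE 0.80), with an edgeR adjusted p of 0.121 without and 0.0643 with the block, and a DESeq2 adjusted p of 0.0086. For cnc-7 the counts were 0.995, 7.13, 22.9 and 5.86 in fed worms and 2.26, 1.09, 0 and 0 in fasted worms, with a log2 fold change of -3.19 (SE 1.03) and an edgeR adjusted p of 0.151.

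Of the 8 fungus-induced peptide genes and relatives listed at 20°C, 5 were higher in fasted worms, and none passed with edgeR and the authors' size factors without the block. DESeq2 called fipr-2, fipr-5 and fipr-22 (adjusted p 0.0282, 0.0493 and 0.0269). Without 1 library edgeR called fipr-22 (without fed replicate 4) and fipr-5 (without fasted replicate 2). They are small genes, and fipr-1 and fipr-2 lie within 4562 bases of chromosome V (12361301 to 12365862) on opposite strands. The counts of fipr-2 were 82.6, 76.05, 246 and 195 in fed worms and 296, 204, 673 and 453 in fasted worms. Within each pair of the same replicate number the fasted library was higher, and the groups overlapped, with replicates 3 and 4 high in both. fipr-2 had a log2 fold change of 1.43 (SE 0.45), with an edgeR adjusted p of 0.142 without and 0.00414 with the block.

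For fipr-1 the counts were 84.6, 68.9, 225 and 157 in fed worms and 229, 168, 451 and 286 in fasted worms. Within each group the libraries had the same order as for fipr-2. fipr-1 had a log2 fold change of 1.08 (SE 0.40), with an edgeR adjusted p of 0.209 without and 0.00939 with the block. The counts of fip-2 were 132, 160.4, 419 and 219 in fed worms and 271, 222, 638 and 522 in fasted worms, with a log2 fold change of 0.83 (SE 0.42) and an edgeR adjusted p of 0.416 without and 0.0336 with the block. Here too each fasted library was above the fed library of its number. These 3 genes overlap a gene on the opposite strand, F23H12.5 for fipr-1, gcy-13 for fipr-2 and T27E4.5 for fip-2.

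A cluster of fipr-5, fipr-9 and fipr-4 within 7369 bases of chromosome V (10221037 to 10228405) had members in both directions. For fipr-9 the counts were 5.97, 7.13, 22.9 and 8.79 in fed worms and 23.3, 16.3, 49.8 and 44.6 in fasted worms, with a log2 fold change of 1.56 (SE 0.51) and an edgeR adjusted p of 0.159 without and 0.0374 with the block. For fipr-5 they were 12.9, 11.9, 19.9 and 15.6 in fed worms and 36.1, 14.1, 59.0 and 59.1 in fasted worms, with a log2 fold change of 1.47 (SE 0.44) and an edgeR adjusted p of 0.125. In both genes 3 fasted libraries stood above every fed one. For fipr-4 the counts were 12.9, 1.19, 24.9 and 24.4 in fed worms and 9.77, 4.35, 5.08 and 2.73 in fasted worms, with a log2 fold change of -1.496 (SE 0.69) and an edgeR adjusted p of 0.329. Fed replicate 2 was at the fasted level in fipr-4, whereas it was the high library in lys-3.

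The remaining genes of this kind were lower. For fipr-22 (chromosome I) the counts were 2.99, 33.3, 37.8 and 0.977 in fed worms and 0.752, 2.18, 2.03 and 0.909 in fasted worms. Fed replicates 2 and 3 were the high ones, as in lys-3, irg-2 and cnc-4. fipr-22 had a log2 fold change of -3.62 (SE 1.06), with an edgeR adjusted p of 0.121 without and 0.0268 with the block. For fip-5 (chromosome X) the counts were 40.8, 64.2, 140.4 and 74.2 in fed worms and 33.1, 17.4, 29.5 and 50.02 in fasted worms, with a log2 fold change of -1.29 (SE 0.42) and an edgeR adjusted p of 0.154.

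Fed replicates 2 and 3 were both at least 2-fold above fed replicates 1 and 4 for lys-3, irg-2, fipr-22 and cnc-4, 4 of 30 members (13.3%), against 2.03% of all listed genes. Without fed replicates 2 and 3, 0 members passed, with 17 at an unadjusted p under 0.05, and 123 of all listed genes passed. Without fed and fasted replicate 3, 1 member passed (thn-2) and 92 of all listed genes. Leaving out 1 library at a time gave 1 to 9 members, and the count over all listed genes moved with it. There was 1 member each without fasted replicate 1 or 4 (107 and 133 listed genes) and 2 each without fed replicate 1, 2 or 3 (121, 156 and 163). There were 4 each without fasted replicate 2 or 3 (259 and 213), and 9 without fed replicate 4 (471). All of these members kept the direction they had with all 8 libraries.

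**Figure D3:**
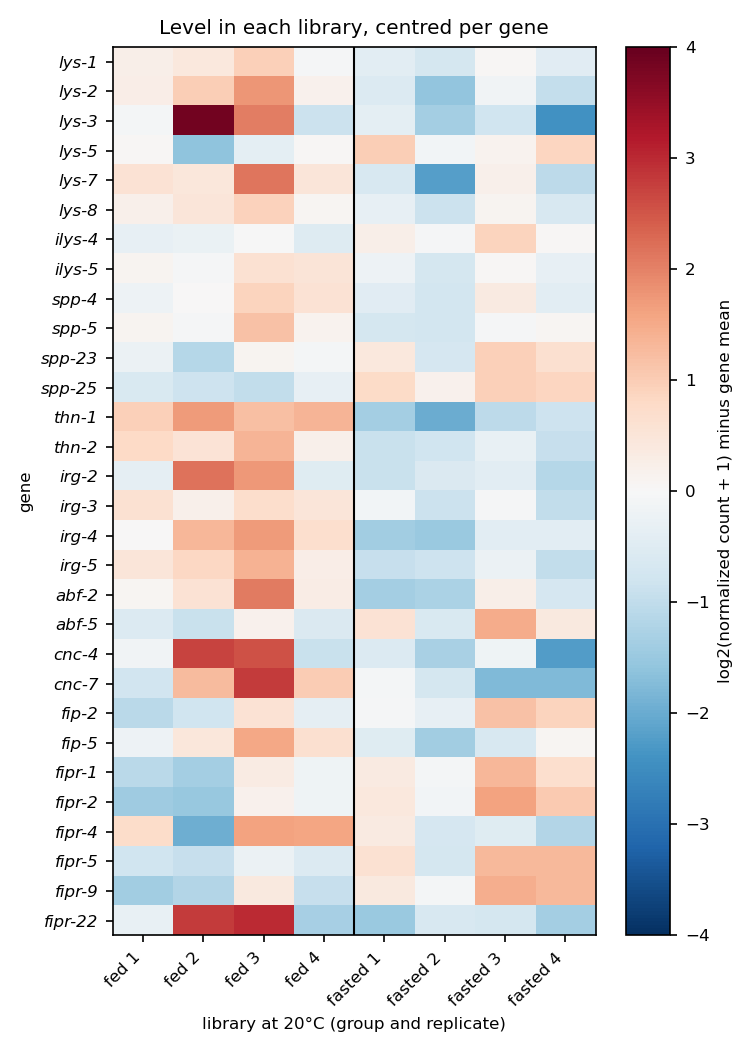
Level of each of the 30 members in each 20°C library, as log2(normalized count + 1) minus the mean of that gene over the 8 libraries (color, red above and blue below the mean). Fed replicate 3 is the highest fed library in 24 of the 30 rows, and in lys-3, irg-2, cnc-4 and fipr-22 the deep red cells are those of fed replicates 2 and 3.

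The directions were also counted by gene length, beside the same split of all listed genes. Of the 15 members under 500 bases, 8 were higher in fasted worms (53.3%), against 71.6% of listed genes of that length. Of the 15 members of 500 bases or more, 2 were higher (13.3%), against 61.7% of listed genes. The lysozyme, thn and irg genes and fipr-22 are in the longer class, and the other members are in the shorter one. The part of gene length in these directions was not tested.

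Other genes of the immune response at 20°C were given from fixed lists. Of all 2666 listed genes, 1667 were higher in fasted worms and 13.8% were called without the block. Of 45 regulators, 7 were listed, all higher in fasted worms and 0 called. With the block 1 was called, as were 25.7% of listed genes. This was kgb-1, a JNK-type kinase, at a log2 fold change of 0.80 (SE 0.19). Its edgeR adjusted p was 0.0631 without and 0.0421 with the block. At an unadjusted p under 0.05 all listed regulators were past the threshold with edgeR, as were 89.5% of all listed genes, which the authors had selected on this same contrast. The p38 kinase pmk-1 and its upstream kinases were not listed. Of 44 other effectors, 21 were listed, 8 higher and 13 lower, whereas 37.5% of all listed genes were lower. With the block, 2 of the 21 were called higher and 6 lower, against 20.7% and 4.99% of listed genes. Without it 2 were called in each direction, against 10.8% of listed genes called higher and 3% called lower. The C-type lectin gene clec-70 (log2 fold change 2.45, SE 0.41, edgeR adjusted p 0.0148) and math-38 (3.34, SE 0.68, adjusted p 0.0343) rose, and asah-1, an acid ceramidase gene (-1.18, SE 0.24, adjusted p 0.0361), and the metallothionein gene mtl-1 (-4.38, SE 0.94, adjusted p 0.0395) fell. Low counts limit clec-70 (4.98, 2.38, 2.99 and 6.84 in fed worms, 21.8, 26.1, 18.3 and 30.9 in fasted worms). They also limit math-38 (1.99, 2.38, 1.99 and 0 in fed worms, 12.8, 31.6, 8.13 and 15.5 in fasted worms). For mtl-1 the counts were 11.9, 17.8, 83.7 and 12.7 in fed worms, led by replicate 3, and 0, 1.09, 1.02 and 3.64 in fasted worms. The counts of the lectin gene clec-85 were 553, 461, 1348 and 479.7 in fed worms and 253, 133, 421 and 197 in fasted worms, so that replicate 3 was again the highest in both groups, with an edgeR adjusted p of 0.101 without and 0.00414 with the block.

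Markers of several tissues of the worm were listed as well. Their directions are to be set against all 2666 listed genes, of which 1667 were higher in fasted worms. Of 14 intestine markers 8 were listed, 6 higher and 2 lower, and their summed level was 14170 to 18742 CPM (counts scaled to library reads) in fed and 9420 to 10492 in fasted worms, a sum led by the yolk gene vit-5. Of 12 body wall muscle markers 9 were listed, all higher, with 2126 to 3445 CPM in fed and 3762 to 5102 in fasted worms. Of 12 hypodermis markers 4 were listed, 2 higher and 2 lower (114 to 218 in fed, 391 to 597 in fasted worms), a sum carried by the adult collagen gene col-19 (mean normalized count 2865 in fed and 9273 in fasted worms), and all 5 neuron markers listed, of 12, were higher (79.5 to 125 in fed, 116 to 238 in fasted worms). Of 12 pharynx markers 3 were listed, 3 of 14 oocyte and embryo markers were listed and lower, 1 of 14 sperm markers was listed, and of 3 coelomocyte markers 0 were listed. The intestinal genes act-5, ifb-2 and ifc-2, which encode the actin of the brush border and intermediate filaments beneath it, rose (log2 fold change 1.03, 0.87 and 0.82, edgeR adjusted p 0.00258, 0.0205 and 0.00554). vit-5 fell (-0.81, adjusted p 0.00835), and the cathepsin B-like protease gene cpr-6 was at -0.49 (adjusted p 0.0753 without and 0.025 with the block). The part of the tissue markers in the members' differences was not tested.

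After heat shock, 9 members were listed, 8 higher in fasted worms and 1, irg-4, lower, whereas 46.6% of all listed genes were lower. The median log2 fold change was 0.66 over the 9 members and 0.20 over all listed genes. In edgeR's test 0 members and 0 of all listed genes passed (0%), although all 9 members (100%) and 78.5% of listed genes were at an unadjusted p under 0.05. DESeq2 called 0 of the 9 members and 3.54% of listed genes, and limma called 0 members. Groups did not overlap for 3 members, fip-2, fipr-9 and fipr-21 (33.3%, against 35% of listed genes). None of the 6 lys, 2 cnc or 2 thn genes of the 20°C table was listed in this comparison.

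Of the 9 members, 6 were shorter than 500 bases, all higher in fasted worms, as were 90.8% of listed genes of that length. Of the 3 longer ones 2 were higher, against 47.9% of listed genes. Fasted replicate 4 was the lowest fasted library for 7 of the 9 members (77.8%), against 45.1% of listed genes. Fed replicate 1 was the highest fed library for 5 (55.6%, against 38.2%).

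The saposin-like gene spp-17 (chromosome I, 1016403 to 1017180, next to spp-23) was the most abundant of the 9, with a mean of 734 ± 30.3 FPKM (SD, n = 4) without and 893 ± 103 with the fast. Its normalized counts were 5652, 4857, 4882 and 5262 in fed worms and 7206, 6632, 5406 and 6152 in fasted worms. Only fasted replicate 3 lay within the fed range. spp-17 had a log2 fold change of 0.30 (SE 0.09), with an edgeR adjusted p of 0.508. For spp-8 (chromosome IV, 8481664 to 8483710) the counts were 474, 522, 741 and 316 in fed worms and 807, 892, 859 and 554 in fasted worms, with a log2 fold change of 0.60 (SE 0.24) and an edgeR adjusted p of 0.614. Fasted replicate 4 alone reached the fed range.

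For fipr-21, which lies next to fip-5 on chromosome X (10304507 to 10304948), the counts were 383, 367, 290.4 and 342 in fed worms and 437, 589, 455 and 415 in fasted worms. The groups did not overlap. fipr-21 had a log2 fold change of 0.46 (SE 0.15), with an edgeR adjusted p of 0.508. Its exact permutation p was 0.029, as for any gene whose groups do not overlap (35% of listed genes). With the adjustment over the listed genes alone, fip-2, fipr-21 and spp-17 passed, as did 32.6% of listed genes, and this adjustment takes no account of how the genes had been selected.

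The 6 members listed at both temperatures had the same direction in both, 5 higher and irg-4 lower. Each had been selected for a fasting difference in both tables. The share of all genes held by both tables that kept their direction was not counted. The tables were normalized separately, so levels at 20°C and after heat shock are set side by side with no test. The highest level was that of fip-2, with 28.3 ± 15.6 FPKM in fed and 49.9 ± 25.1 in fasted worms at 20°C, and 33.6 ± 10.9 and 56.1 ± 6.50 after heat shock (SD, n = 4). After heat shock its normalized counts were 249, 269, 383 and 180.4 in fed worms and 421, 502, 509 and 399.8 in fasted worms. These groups were apart, whereas those at 20°C overlapped.

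For fipr-1 the counts after heat shock were 193, 98.5, 106 and 88.7 in fed worms and 286, 373, 262 and 107 in fasted worms. Fed replicate 1 was high and fasted replicate 4 lay at the fed level. For fipr-9 they were 17.7, 13.5, 6.53 and 2.99 in fed worms and 29.3, 31.7, 23.8 and 20.5 in fasted worms, with no overlap. For abf-5 they were 69.3, 23.8, 35.9 and 26.9 in fed worms and 97.6, 79.8, 89.8 and 42.1 in fasted worms. The log2 fold changes after heat shock were 0.76 (SE 0.21) for fip-2, 1.08 (SE 0.38) for fipr-1, 1.34 (SE 0.50) for fipr-9 and 0.98 (SE 0.40) for abf-5, with edgeR adjusted p from 0.508 to 0.630.

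For ilys-4 the counts after heat shock were 80.6, 102, 78.3 and 85.7 in fed worms and 117, 176, 176 and 78.9 in fasted worms. Fasted replicate 4 again stood with the fed libraries. ilys-4 had a log2 fold change of 0.66 (SE 0.28), with an edgeR adjusted p of 0.632. For irg-4 they were 127, 196, 282 and 121 in fed worms and 70.1, 53.2, 60.6 and 180.5 in fasted worms, with a log2 fold change of -0.99 (SE 0.43) and an edgeR adjusted p of 0.650. Fasted replicates 1 to 3 were below every fed library, and fasted replicate 4 was within the fed range.

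**Figure D4:**
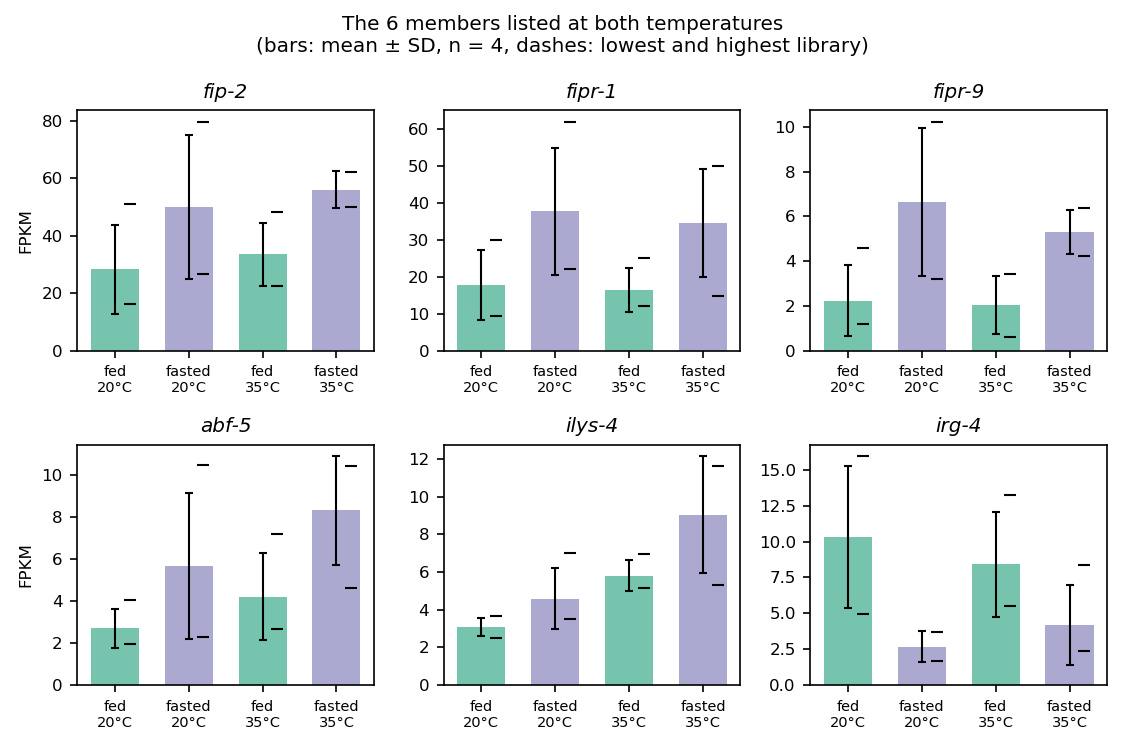
FPKM of the 6 members listed in both tables (y axis) in fed and fasted worms at 20°C and after 35°C heat shock, with bars for the mean ± SD of 4 libraries and dashes for the lowest and highest library. In each panel fasted worms stand on the same side of fed worms at both temperatures, and the tables were scaled separately.

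Whether fasting acted to a different extent at the 2 temperatures was tested with an interaction term. It was fitted to the 410 genes that both tables hold, of which 16 passed (3.9%). These genes had been selected for a fasting difference at both temperatures. Members listed at a single temperature were left out, so the test cannot show how far the members as a set depend on temperature. None of the 6 members passed. At an unadjusted p the lowest was that of irg-4, 0.160 in edgeR's test, with a difference, after heat shock minus 20°C, of 0.93 (SE 0.63) on the log2 scale. The interval of ± 2 SE ran from -0.34 to 2.19 for irg-4, from -1.35 to 1.19 for abf-5, from -1.10 to 0.97 for fip-2, from -1.28 to 1.28 for fipr-1, from -1.78 to 1.35 for fipr-9 and from -0.78 to 0.91 for ilys-4. A 2-fold difference in either direction lay inside the interval for abf-5, fipr-1 and fipr-9.

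Of the other immune genes after heat shock, 2 of 45 regulators were listed, pmk-1 at a log2 fold change of -0.41 and ikb-1 at 0.46. Of 44 effectors 7 were listed. In edgeR's test 0 of these genes and 0 of all listed genes were called.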

How the data were processed

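Whole N2 worms were profiled by poly-dT selected mRNA sequencing with paired-end reads in 16 libraries. The authors aligned reads to WBcel235 with HISAT2 2.0.5 and made the deposited raw counts per gene with featureCounts 1.5.0-p3. The paper and labels were the sources. How reads that match more than 1 gene were treated, and whether strand was kept, is not stated in those sources, so values of close relatives within a family and of overlapping genes are uncertain. The deposited signal columns hold normalized counts, obtained by the authors by dividing each count by the DESeq2 size factor of its library (0.842 to 1.33 at 20°C, 0.919 to 1.24 after heat shock). The deposited FPKM values were scaled by the authors to gene length and library reads. The p-value columns of the authors hold their own DESeq2 comparison (version not given in the sources used here), with a Benjamini-Hochberg adjusted column, and were read only to learn the filter of each table and the number of genes adjusted over. Their columns of fold changes were not used.

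Library reads were recovered from count, FPKM and length. The counts of all listed genes were fitted with the quasi-likelihood test of edgeR 4.0.16 in R 4.3.3, using these reads and the authors' size factors. Adjustment followed Benjamini-Hochberg over every gene in the authors' adjustment, with p set to 1 for genes that a table leaves out. The standard error is the log2 fold change divided by the square root of the F statistic. Single values were compared with exact permutation tests, two-sided, whose smallest p for 4 against 4 libraries is 0.029. Groups came from the sample labels. The deviations of same-numbered 20°C libraries correlated at 0.179, 0.131, 0.355 and 0.120 over 2459 genes, all above the bound of 0.1, so the numbers were taken as pairs. This rests on the data, not on the design, and fed replicate 1 correlated more with fasted replicate 2 (0.305). After heat shock they correlated at 0.283, 0.0934, 0.304 and 0.338 over 1277 genes, which did not meet the bound for replicate 2.

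Symbols were matched through the RefSeq table of the WBcel235 assembly (2638 of the genes listed at 20°C, 1418 after heat shock, and 2 more after heat shock through Ensembl, while 28 and 22 had no name). Gene positions are those of the deposited tables. The members, the other gene lists and the tests were chosen with earlier results of these data known. Values are given for every member. Of the other immune genes, values are given at 20°C for those called without the block, and after heat shock for the listed regulators only. Other listed immune genes with a smaller p than some of those named are left out. The genes kgb-1, clec-85, col-19 and the intestinal genes were named after their values were seen. As alternatives the counts were tested with DESeq2 1.42.0, the kind of test behind the authors' selection. The FPKM values were tested with limma 3.58.1, after adding a pseudocount of 1 or 0.1 and taking log2. Further alternatives were other size factors, a mean raw count of at least 10, the replicate block, other adjustments, a fold of at least 1.5, and each library left out. The fits without fed replicates 2 and 3, and without both replicates 3, were added after the data were seen. Sequence features of the members were not analysed here. Summaries were made in Python 3.11.15 with numpy 2.4.6 and pandas 2.3.3. Only edgeR's test without the block was tried on simulated counts. These had the same dispersion for all genes and no selection by the contrast, so that trial cannot show how the test behaves on the genes listed here.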

Additional observations from a re-analysis of the deposited data

Results flagged for a closer look

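By Dixon's test the highest library lay far from the other 3 in 7 of 78 sets of 4 libraries. There was 1 set for each member, group and temperature. Chance gives about 1 set in 20 where sets are independent and values normally spread. The sets here share the same 16 libraries, and the rate over all listed genes was not computed, so an excess over chance cannot be read from this count. Of the 7 flagged libraries, 4 were fed replicate 3 at 20°C. That library held 42.8 normalized counts of abf-2 (the others 9.95 to 14.3), 22.9 of fipr-9 (5.97 to 8.79), 3349.5 of lys-7 (1035 to 1138) and 13042.5 of spp-5 (5581 to 6351). Fasted replicate 3 at 20°C held 186.005 of thn-2 (121.9 to 133). After heat shock, fed replicate 1 held 193.4 of fipr-1 (88.7 to 105.5) and fasted replicate 4 held 180.5 of irg-4 (53.2 to 70.1).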

How the results depend on the processing

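At 20°C, where 5 members and 368 of all listed genes passed, TMM factors gave 11 members, DESeq2 size factors over the listed genes 19 (746 of all listed genes, 143 higher and 603 lower), DESeq2 15 (874), the replicate block 18 (686), adjustment over the listed genes alone 24 (2179) and adjustment over every annotated gene 1 (117). Without fed replicates 2 and 3 there were 0 members (123), and without both replicates 3 there was 1 (92). Leaving out 1 library gave 1 to 9 members and 107 to 471 listed genes. Both limma fits, library reads alone, the mean count of at least 10 (28 members tested) and the fold of at least 1.5 gave 5 members each. No member changed direction in either fasting comparison under any alternative. After heat shock, where 0 passed, DESeq2 called 51 listed genes, limma 1 with a pseudocount of 1 and 2 with 0.1, and adjustment over the listed genes alone 3 members and 470 genes. The replicate block and every fit without 1 library called 0 there. For the difference between temperatures, 0 members passed under any alternative, while 27 of the 410 genes passed with DESeq2, 0 with adjustment over the genes of the 20°C comparison and 2 to 19 without 1 library, against 16. Its sign was not stable: without 1 library it ran from -0.35 to 0.36 for abf-5, from -0.51 to 0.22 for fip-2, from -0.37 to 0.32 for fipr-1, from -0.83 to 0.21 for fipr-9 and from -0.078 to 0.31 for ilys-4, and with the replicate block it was 0.072 for abf-5. For irg-4 it stayed between 0.36 and 1.22. Sequence features planned for the members were not run. Low counts limit thn-1, cnc-7, lys-3, fipr-22 and abf-2, and among the other immune genes clec-70, math-38 and mtl-1.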
